A study of Mus musculus with 6 samples.

Results

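Interferon-stimulated genes are the genes that cells switch on when interferon reaches their surface receptors, and 34 of them were listed by symbol for this description: Isg15, Isg20, Ifit1, Ifit2, Ifit3, Rsad2, Usp18, Oas1a, Oas2, Oas3, Oasl1, Oasl2, Mx2, Irf7, Irf9, Stat2, Bst2, Ifi44, Ifi35, Ifi27l2a, Ifih1, Dhx58, Xaf1, Zbp1, Rtp4, Trim30a, Parp9, Parp14, Dtx3l, Cmpk2, Herc6, Ifitm3, Eif2ak2 and Samd9l. Of these, 33 were found among the 32285 genes of the count matrices, and Mx2 was not analysed here. Each of the 33 had at least 1 unique molecule (UMI) in every library. The list names known targets of the pathway and no measured value chose them, although results of these data were known when it was proposed.

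The cells came from the colons of wild-type mice and were sorted for CD45, a surface protein of immune cells, after the epithelium had been stripped with EDTA. In the pseudo germ-free (pGF) arm the mice had received antibiotics for 4 weeks, and in the day 2 and day 7 groups antibiotics were continued together with dextran sulfate sodium (DSS), which damages the lining of the colon. In the specific pathogen free (SPF) arm the mice had no antibiotics and were untreated (day 0) or on DSS for 2 or 7 days. Antibiotics deplete gut bacteria but are also drugs acting on the animal, so depletion of the flora and a direct drug effect cannot be told apart here. The 6 groups are thus pGF at days 0, 2 and 7 and SPF at days 0, 2 and 7, and each is 1 library. No difference between groups therefore has a replicate check, no test was possible, and every comparison below is between libraries. How many mice gave cells to a library is not given in the sources used here.

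Type I interferons, such as interferon-beta, bind a receptor made of Ifnar1 and Ifnar2, and the kinases Jak1 and Tyk2 then activate a complex that holds Stat2 and Irf9 and binds the interferon-stimulated response element in the promoters of target genes. In the gut, bacterial products and host nucleic acids can start interferon production through sensors in macrophages and dendritic cells. Interferon-gamma from T and NK cells uses another receptor and induces an overlapping set of genes.

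The sequences below are the stretches just before the start site of 4 members that carry the results, Isg15, Ifit1, Ifit3 and Rsad2, and they show where the response element lies. They are 170 bases each, written 5′ to 3′ on the strand of the gene, from RefSeq on GRCm38.p6, and capitals mark every match on either strand to the core of the element (GAAA, 2 bases of any kind, GAAA, which reads TTTC, 2 bases, TTTC on the other strand).

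Isg15, chr4:156200819-156200988, minus strand: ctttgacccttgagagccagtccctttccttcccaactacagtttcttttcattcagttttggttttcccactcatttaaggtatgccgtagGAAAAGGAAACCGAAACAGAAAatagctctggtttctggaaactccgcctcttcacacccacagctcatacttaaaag

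Ifit1, chr19:34640719-34640888, plus strand: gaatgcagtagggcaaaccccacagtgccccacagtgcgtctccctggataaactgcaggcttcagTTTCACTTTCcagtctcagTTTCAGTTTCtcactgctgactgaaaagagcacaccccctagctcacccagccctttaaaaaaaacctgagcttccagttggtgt

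Ifit3, chr19:34583359-34583528, plus strand: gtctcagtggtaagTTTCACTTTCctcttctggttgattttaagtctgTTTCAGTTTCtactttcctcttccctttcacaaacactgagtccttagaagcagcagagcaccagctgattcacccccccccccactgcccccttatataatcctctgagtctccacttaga

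Rsad2, chr12:26456453-26456622, minus strand: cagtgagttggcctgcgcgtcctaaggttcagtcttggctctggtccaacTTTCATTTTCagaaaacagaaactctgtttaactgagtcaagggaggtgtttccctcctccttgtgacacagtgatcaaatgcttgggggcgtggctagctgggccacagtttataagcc

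In Isg15 3 overlapping cores make 1 run of capitals, which starts 78 bases before the start site. Ifit1 and Ifit3 each have a pair of cores on the opposite strand, and Rsad2 has 1 core on the opposite strand, 120 bases before the start. Promoter windows (250 bases before the start to 50 after it) were at hand for 25 of the 34 members, and 12 of the 25 (48%) held at least 1 core: Bst2, Eif2ak2, Ifih1, Ifit1, Ifit3, Ifitm3, Isg15, Oas1a, Oas3, Rsad2, Stat2 and Trim30a. Of all 27025 genes with such a window, 3.99% held one. The core of the gamma-activated site (TTC, 3 bases of any kind, GAA, which reads the same on both strands), an element of interferon-gamma target genes, was found in 7 of the 25 members (28%) and in 9.55% of all genes. These matches describe letters in a window and do not show binding.

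The libraries held 32870737, 52772901 and 23335071 UMIs in the pGF arm and 43949679, 37169685 and 46830975 UMIs in the SPF arm at days 0, 2 and 7. After filtering, 29000 cells were kept, 1260, 6936 and 6172 from pGF and 2298, 2767 and 9567 from SPF, and between 5 and 131 cell barcodes were shared by a pair of libraries. The SPF day 2 library stands apart, since 61.1% of its barcodes exceeded 10% mitochondrial UMIs, against 6.41% to 28.1% in the other libraries. Cells were clustered without the interferon genes and classed by marker genes, so each class name means cells like that type. The monocyte or macrophage class, called macrophages below, held 160, 121 and 216 pGF and 292, 244 and 1803 SPF cells, and 14 of its 14 markers were detected in every library. The class called dendritic-marker cells held 71, 141 and 154 pGF and 113, 232 and 220 SPF cells. It rests on 11 of 14 detected dendritic markers in its main cluster, none of which is among the 10 leading genes (H2-Aa, H2-Eb1, H2-Ab1, Retnla and Cst3 lead), so its identity as dendritic is less firm. Neutrophils reached 20 cells at days 2 and 7 only, with 47 and 75 pGF and 47 and 3415 SPF cells. B cells could be compared at day 7 only.

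Levels are given as CPM, the UMIs of a gene scaled to 1000000 UMIs of its class in that library. Pooled in this way, more expressing cells and more RNA per cell cannot be told apart, and that is taken up below. A ratio is the log2 of (CPM + 10) in pGF over that in SPF, a scale that understates changes of weakly expressed genes, and a member counts as higher or lower where it is at least 2-fold apart on that scale and its mean over the pair is at least 10 CPM. Members that pass this limit only through their higher library were bound to differ, so counts and medians describe the members that passed and support no claim about the list. Ranges in brackets are exact 95% intervals of counts, shares or ratios of counts and cover counting error only. Reads of Oas1a, Ifit1, Ifit3, Ifi27l2a and Trim30a may also match near-identical neighbours, and Parp9 and Dtx3l overlap at their ends on chromosome 16, so the level of each is uncertain to that extent.

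The members were most active in myeloid cells, and the arm in which they stood higher changed with the day. At day 2 of DSS a few members were at least 2-fold higher in pGF than in SPF macrophages and dendritic-marker cells. At day 7 most measurable members were lower in pGF dendritic-marker cells (6.55% of all genes). In pGF macrophages 4 of 30 were lower (5.41%). Cells of different kinds within these classes differed. At day 7, 0 of 26 were lower in the C1q macrophage cluster described below (2.68%). In dendritic-marker cells without a Ccr7 or Fscn1 UMI 5 of 26 were lower (6.04%). Summed over all 33 members, whose total is set by abundant ones such as Ifitm3, the differences were small at day 2, with 1.15-fold in macrophages (log2 0.13 to 0.26) and 1.03-fold in dendritic-marker cells (log2 −0.04 to 0.13). At day 7 the same sums in pGF were 0.655 and 0.340 of those in SPF. In neutrophils the called members were higher in pGF at both days. As whole classes, lymphocytes, plasma cells and epithelial cells showed few members apart by 2-fold, except epithelial cells at day 7. A group of strongly inducible members served as a summary. They are Ifit1, Ifit2, Ifit3, Rsad2, Cmpk2, Isg15, Usp18, Oasl1 and Ifi44, which are nearly silent in many cells without interferon. In myeloid cells Isg15 alone held a large part of this sum. In the main dendritic-marker cluster of SPF at day 7, for example, it held 1424 of 1912 UMIs.

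**Figure D1:**
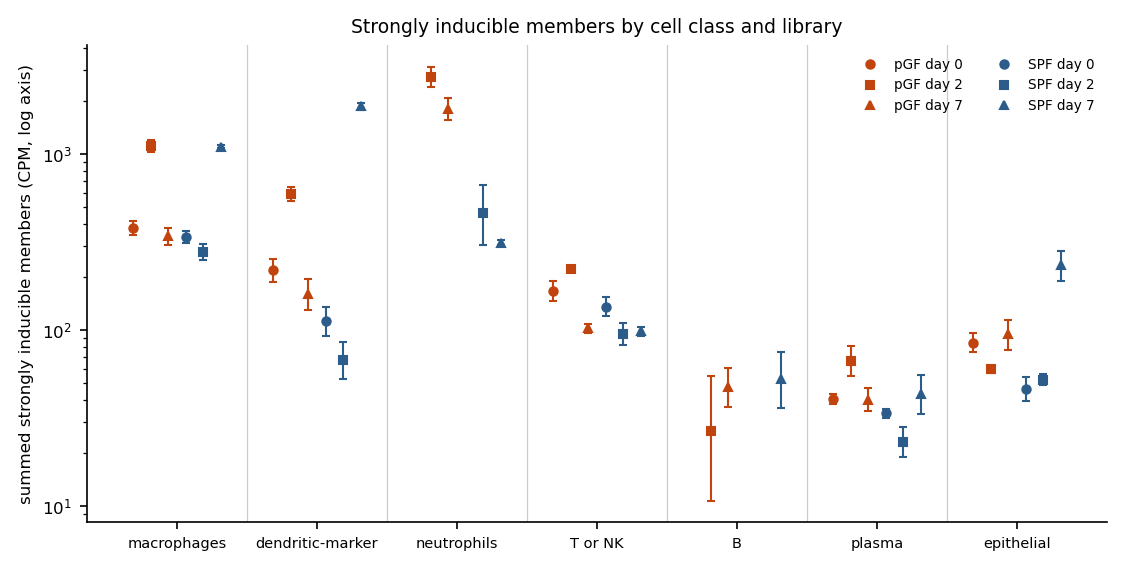
Summed level of the 9 strongly inducible members (CPM) by class and library, with exact 95% Poisson intervals of the counts. Macrophages and dendritic-marker cells are highest at day 2 in pGF and at day 7 in SPF, and pGF neutrophils stand above SPF neutrophils at both days shown.

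In macrophages this group summed to 381, 1112 and 341 CPM in pGF (347 to 417, 1033 to 1196 and 304 to 381) and to 338, 278 and 1102 CPM in SPF (313 to 364, 249 to 309 and 1082 to 1121) at days 0, 2 and 7. The pGF peak at day 2 and the SPF peak at day 7 had almost the same height in this sum. Isg15 made up a larger part of the SPF peak, so the other members of the group together were lower there. In dendritic-marker cells the sums were 218, 592 and 160 CPM in pGF and 113, 67.4 and 1867 CPM in SPF. The order of peaks was the same as in macrophages, and the SPF peak was higher than the pGF peak. Neutrophils had 2755 and 1815 CPM in pGF and 461 and 314 CPM in SPF at days 2 and 7. The pGF day 2 sum was the highest of all class sums with at least 20 cells, and SPF dendritic-marker cells at day 7 came next. T or NK cells had 167, 224 and 102 CPM in pGF and 136, 95.3 and 98.6 CPM in SPF. Plasma cells lay between 40.3 and 66.9 CPM in pGF, where 1 cell held 36.1% of the UMIs behind the highest of these (43.6 CPM without it), and between 23.1 and 43.2 CPM in SPF. B cells at day 7 had 47.7 CPM in pGF and 52.9 CPM in SPF.

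**Figure D2:**
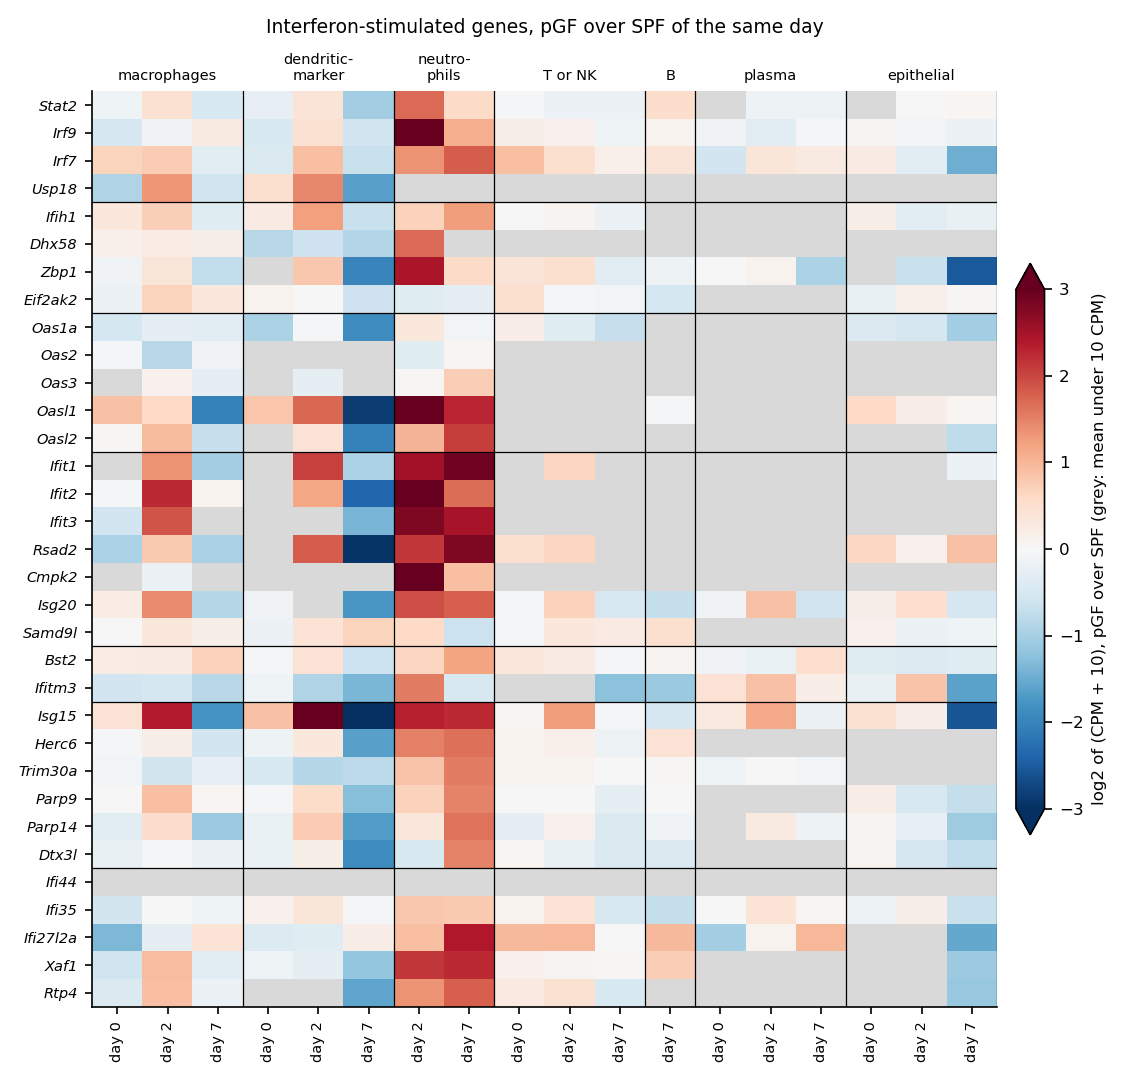
Log2 ratio of (CPM + 10), pGF over SPF, for each of the 33 members (down the page, by role) in each class and day with at least 20 cells in both libraries (across). Macrophages and dendritic-marker cells turn from mostly higher in pGF at day 2 to mostly lower at day 7, and neutrophils are mostly higher in pGF at both days.

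Before DSS few measurable members were 2-fold apart between the arms in macrophages and dendritic-marker cells. In day 0 macrophages 0 of 29 measurable members were at least 2-fold higher in pGF (0.700% of all genes were) and 1 was lower (0.756% of all genes). That member was Ifi27l2a, a small mitochondrial protein of the interferon response, with 387, 867 and 794 CPM in pGF (477, 569 and 718 UMIs) and 1004, 1061 and 598 CPM in SPF (2040, 1288 and 6554 UMIs) at days 0, 2 and 7. Its day 0 ratio was −1.35, and at days 2 and 7 the arms were within 2-fold. The next in size were Rsad2 (−0.94), Usp18 (−0.90), Oasl1 (0.89) and Irf7 (0.68), so members stood on both sides. In day 0 dendritic-marker cells 0 of 22 were higher (1.0% of all genes) and 0 were lower (2.05%). The largest there were Oas1a at −0.95, Isg15 at 0.87 and Oasl1 at 0.84. The inducible group in these day 0 cells was higher in pGF, at 218 CPM (187 to 253) against 113 CPM in SPF (93.0 to 135).

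At day 2 the pGF macrophages carried more interferon-stimulated transcripts. Of 32 measurable members 6 were at least 2-fold higher in pGF, where 2.50% of all genes were, and 0 were lower, where 2.43% of all genes were. The median ratio over the 32 was 0.49, against −0.02 over all genes, and 24 of the 32 were above 0. All 6 had at least 20 UMIs in the higher library and a counting interval of the ratio that lay above 1. With a pseudocount of 50 CPM in place of 10, 2 members were at least 2-fold higher.

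Isg15 encodes a ubiquitin-like protein that is attached to other proteins and also secreted. In macrophages Isg15 had 247, 664 and 219 CPM in pGF (305, 436 and 198 UMIs) and 179.7, 121 and 788 CPM in SPF (365, 147 and 8628 UMIs) at days 0, 2 and 7. At day 2 it was 5.49-fold higher in pGF (4.54 to 6.66, log2 ratio 2.36), and at day 7 it stood at 0.278 of the SPF level (0.240 to 0.320, log2 ratio −1.80). Parp14, an ADP-ribosyltransferase of the same role group, had 47.9, 116 and 61.9 CPM in pGF (59, 76 and 56 UMIs) and 61.5, 77.4 and 142 CPM in SPF (125, 94 and 1557 UMIs). Its day 7 ratio was −1.08, while at day 2 it was under 2-fold. Of the 6 members of this group 1 was higher at day 2 and 2 were lower at day 7.

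The antiviral effectors had the largest shift at day 2, with 4 of 7 higher in pGF and a median of 1.35. Ifit1, Ifit2 and Ifit3 bind foreign RNA and hold back its translation. Ifit2 had 25.1, 114 and 22.1 CPM in pGF macrophages (31, 75 and 20 UMIs) and 26.6, 16.5 and 20.1 CPM in SPF macrophages (54, 20 and 220 UMIs). It was thus high in a single library, pGF at day 2 (log2 ratio 2.23). Ifit3 had 12.2, 67.0 and 7.74 CPM in pGF (15, 44 and 7 UMIs) and 23.1, 10.7 and 7.21 CPM in SPF (47, 13 and 79 UMIs), and its day 2 ratio was 1.90. Ifit1 had 0.811, 53.3 and 12.2 CPM in pGF (1, 35 and 11 UMIs) and 15.8, 14.8 and 35.2 CPM in SPF (32, 18 and 386 UMIs), with ratios of 1.35 at day 2 and −1.03 at day 7. Unlike Ifit2 and Ifit3, Ifit1 was also raised in the SPF day 7 library.

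Isg20, an exonuclease that degrades RNA, had 18.7, 32.0 and 11.1 CPM in pGF macrophages (23, 21 and 10 UMIs) and 14.8, 5.76 and 27.9 CPM in SPF macrophages (30, 7 and 305 UMIs), with a day 2 ratio of 1.41. Rsad2, or viperin, which makes a chain-terminating nucleotide, had 16.2, 92.9 and 43.1 CPM in pGF (20, 61 and 39 UMIs) and 40.4, 49.4 and 95.1 CPM in SPF (82, 60 and 1042 UMIs). It was under 2-fold at day 2 and stood just inside 2-fold at day 7 (−0.98). Cmpk2, a nucleotide kinase beside Rsad2 on chromosome 12, had 2, 6 and 1 UMIs in pGF macrophages and 7, 14 and 131 UMIs in SPF macrophages, or 1.62, 9.14 and 1.11 CPM in pGF and 3.45, 11.5 and 12.0 CPM in SPF. The pGF level is thus poorly resolved.

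Among the signalling members 1 of 4 was higher at day 2 (median 0.62). Usp18, which removes Isg15 from proteins and blocks the type I receptor, had 4.06, 42.7 and 8.85 CPM in pGF macrophages (5, 28 and 8 UMIs) and 16.2, 11.5 and 18.4 CPM in SPF macrophages (33, 14 and 202 UMIs). Its ratio at day 2 was 1.29. Irf7, the factor that amplifies interferon-alpha production, had 70.6, 91.4 and 46.5 CPM in pGF (87, 60 and 42 UMIs) and 40.4, 49.4 and 61.0 CPM in SPF (82, 60 and 668 UMIs), and was under 2-fold in each pair. The sensors (Ifih1, Dhx58, Zbp1 and Eif2ak2) had a median of 0.51 with 0 of 4 apart by 2-fold, and the oligoadenylate synthetases had 0 of 5 and a median of 0.13. The membrane factors, which block virus entry (Ifitm3) or tether virus at the cell surface (Bst2), had 0 of 2 and a median of −0.14. The day 2 difference therefore lay mainly with effectors, Isg15 and Usp18.

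**Figure D3:**
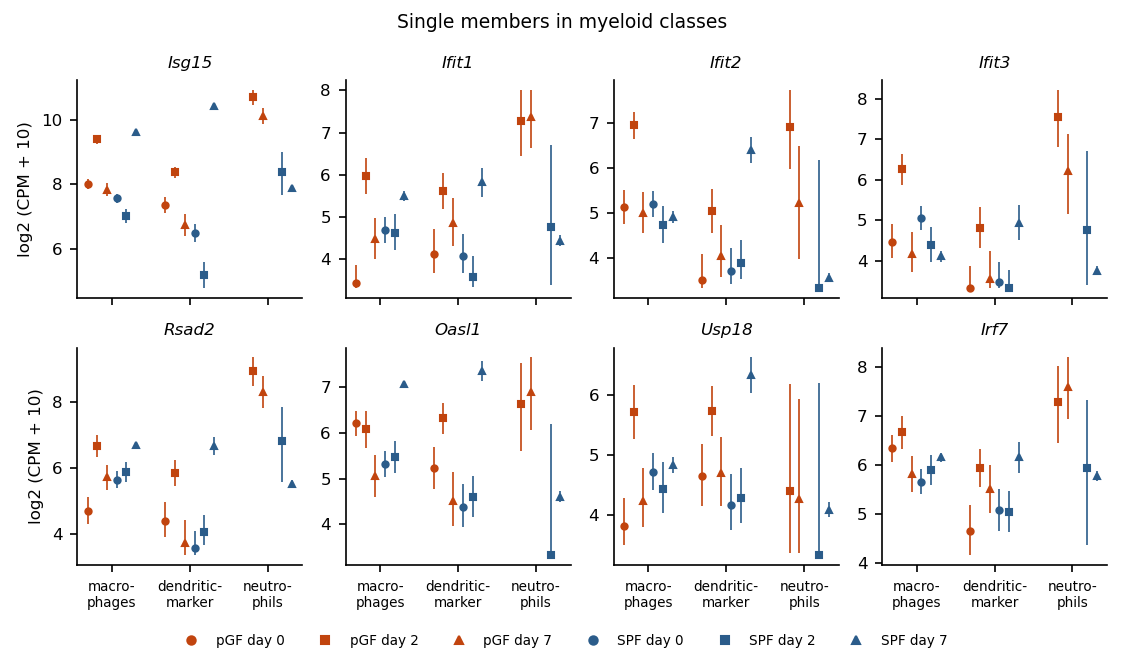
Levels, as log2 of (CPM + 10), of single members by library in macrophages, dendritic-marker cells and neutrophils, with exact 95% intervals of the counts. Isg15 in macrophages is highest at day 2 in pGF (664 CPM) and at day 7 in SPF (788 CPM).

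At day 7 the macrophages of the class as a whole differed in the other direction. Of 30 measurable members 0 were at least 2-fold higher in pGF, where 9.34% of all genes were, and 4 were lower, where 5.41% of all genes were. The 4 were Oasl1, Isg15, Parp14 and Ifit1. When only cells with at least 500 genes were kept and then clustered and classed anew, 0 of 29 members were lower, and the ratio of Ifit1 was 0.19. Oasl1, a protein of the oligoadenylate synthetase family, had 64.1, 57.9 and 23.2 CPM in pGF (79, 38 and 21 UMIs) and 30.0, 34.6 and 124 CPM in SPF (61, 42 and 1363 UMIs), and its ratio at day 7 was −2.02. The median over the 30 was −0.32, against 0.26 over all genes. Other members did not share the SPF peak, for example Bst2, with 237 CPM in pGF against 143 CPM in SPF at day 7, and Ifit2, with 22.1 and 20.1 CPM. TMM factors, which centre the bulk of genes, shifted the median of all genes by −0.44 in this pair. With them 9 members were lower (11.3% of all genes) and 0 were higher (3.65%). Relative to all genes the members' median was −0.58 with CPM and −0.61 with TMM. Neutrophil markers moved with this comparison, summing to 246 CPM in pGF (6 of 12 at 20 CPM or more, with Cxcr2, Ly6g, Camp and Ngp at 0 UMIs) against 5365 CPM in SPF macrophages (8 of 12), and their part was not tested.

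Set along the days, pGF macrophages had 14 of 31 members at least 2-fold higher at day 2 than at day 0 (3.31% of all genes), with a median of 0.90. At day 7 over day 2, 7 of 31 were lower in pGF (2.25% of all genes). In SPF 0 of 31 were higher (2.04% of all genes) and 0 lower (0.973%) at day 2 over day 0. At day 7 over day 0, 8 of 31 were higher in SPF (7.53% of all genes) and 1 was lower (9.87%). The day 2 and day 0 libraries are shared between these comparisons. The early peak was thus in the pGF libraries and the late peak in the SPF libraries, and the SPF day 2 library, which lost most barcodes to the mitochondrial limit, was close to its own day 0.

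The macrophage class holds distinct clusters, and the libraries drew on them differently. A cluster led by Apoe, Lyz2 and the complement genes C1qa, C1qb and C1qc held 92.5%, 85.1% and 56.0% of pGF and 89.0%, 61.9% and 5.21% of SPF macrophages at days 0, 2 and 7. A second cluster, led by Saa3, Cxcl2 and Il1b, held 60 of the 216 pGF macrophages and 1431 of the 1803 SPF macrophages at day 7. Another cluster, of low depth and led by Saa3, Apoe, Lyz2 and C1q genes, held 35 and 278. Day 7 macrophages of pGF and SPF are thus largely different cells, and the comparison was repeated within the clusters.

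Within the C1q cluster the inducible group had 360, 1054 and 280 CPM in pGF (326 to 396, 974 to 1139 and 239 to 326) and 325, 183 and 118 CPM in SPF (299 to 352, 155 to 214 and 92.8 to 147). The level in SPF was lowest at day 7, and the late SPF peak was absent from these cells. At day 2, 11 of 31 members were at least 2-fold higher in pGF within it (3.13% of all genes) and 0 were lower (2.56%), against 6 of 32 and 0 in the whole class. Isg15 stood at 627 CPM in pGF against 80.6 CPM in SPF. At day 7, 0 of 26 were lower in pGF (2.68% of all genes) and 3 were higher (3.70%), and the median was 0.26, so the sign of the day 7 difference turned in these cells. Isg15 in the C1q cluster at day 7 had 193 CPM in pGF (116 UMIs) and 102 CPM in SPF (66 UMIs, log2 ratio 0.86), and Oasl1 had 14 UMIs in pGF and 4 UMIs in SPF (1.04).

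Within the Saa3 and Il1b cluster the inducible group had 453 CPM in pGF at day 7 (376 to 540) and 483, 455 and 1175 CPM in SPF at days 0, 2 and 7 (389 to 592, 388 to 530 and 1154 to 1196). Here Isg15 was lower in pGF at day 7, with 256 CPM (69 UMIs) against 840 CPM in SPF (8329 UMIs, log2 ratio −1.68), and Oasl1 too, with 4 UMIs against 1332 UMIs (−2.54). Rsad2 had 108 CPM in pGF and 102 CPM in SPF, and Ifit1 had 33.4 and 37.4 CPM, so both were close. Over the cluster 1 of 30 members was higher (9.97% of all genes) and 3 were lower (5.57%), and the median was 0.12, against 0.29 over all genes. The higher member was Ifi27l2a, with 1380 CPM in pGF (372 UMIs) and 623 CPM in SPF (6180 UMIs, 1.135). The lower member beside Isg15 and Oasl1 was Isg20, with 2 UMIs in pGF and 289 UMIs in SPF (−1.17). Most of the late SPF macrophage level thus came from the Saa3 and Il1b cells, where Isg15 and Oasl1 differed and the Ifit1 and Rsad2 levels were close. Isg15 and Oasl1 held 8329 and 1332 of the 11653 inducible UMIs of this cluster in SPF at day 7. The difference of the group there was thus mostly theirs.

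The low-depth cluster, with a median of 958.5 UMIs per cell, differed in the same direction as the whole class at day 7. Its inducible group had 523 CPM in pGF (310.0 to 827) and 864 CPM in SPF (774 to 961), from 18 and 335 UMIs. Of 29 members 3 were higher in pGF (25.8% of all genes) and 12 were lower (22.5%), and the median was −0.41, against 0.33 over all genes. Isg15 had 378 CPM in pGF (13 UMIs) and 601 CPM in SPF (233 UMIs), and Rsad2 and Ifit1 had no UMI in pGF, so the pGF side is thinly counted.

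**Figure D4:**
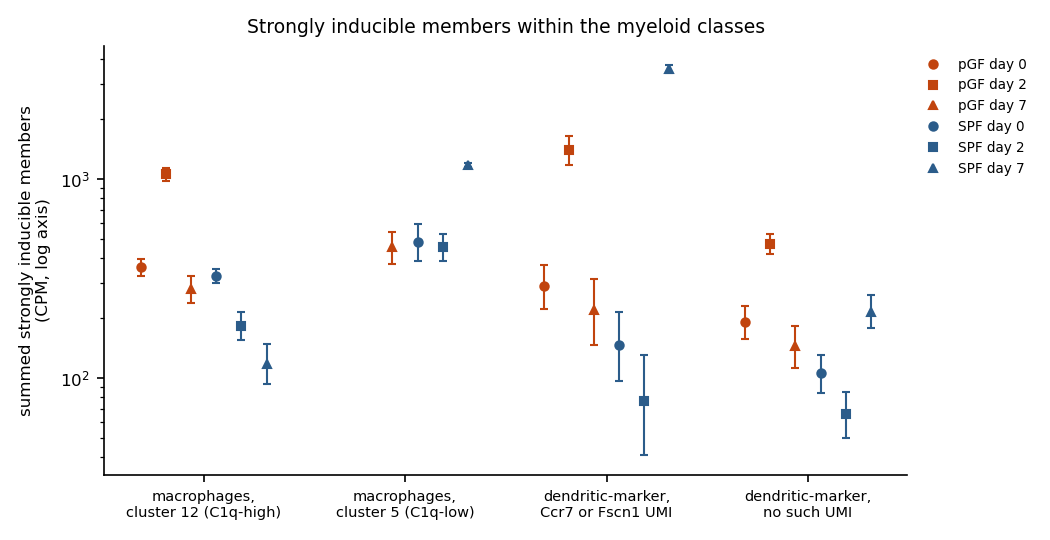
Summed level of the inducible members (CPM, exact 95% intervals) within the 2 main macrophage clusters and within dendritic-marker cells with and without a UMI of Ccr7 or Fscn1. The C1q cluster peaks at day 2 in pGF (1054 CPM), and the SPF day 7 peak lies in the Saa3 and Il1b cluster (1175 CPM) and in cells with Ccr7 or Fscn1 (3565 CPM).

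Dendritic-marker cells showed the same turn with larger ratios. At day 2, 7 of 27 measurable members were at least 2-fold higher in pGF (2.77% of all genes) and 0 were lower (4.43%), with a median of 0.43. Isg15 had 154.5, 322 and 97.9 CPM in pGF (124, 253 and 61 UMIs) and 80.1, 26.6 and 1391 CPM in SPF (81, 28 and 1424 UMIs). It was lowest in the SPF day 2 library and highest in the SPF day 7 library, and at day 2 it was 12.1-fold higher in pGF (8.18 to 18.6, log2 ratio 3.18). Ifit1 had 7.48, 39.5 and 19.2 CPM in pGF (6, 31 and 12 UMIs) and 6.92, 1.90 and 46.9 CPM in SPF (7, 2 and 48 UMIs). Since SPF had only 2 UMIs at day 2, the 20.8-fold ratio has an interval of 5.29 to 179. Rsad2 had 11.2, 48.4 and 3.21 CPM in pGF (9, 38 and 2 UMIs) and 1.98, 6.65 and 91.8 CPM in SPF (2, 7 and 94 UMIs), with a day 2 ratio of 1.81. Both were thus low in the SPF day 2 library and high in the SPF day 7 library. The other 4 were Oasl1 (1.72), Usp18 (1.45), Ifih1 (1.23), the RNA sensor also called MDA5, and Ifit2 (1.16). With a pseudocount of 50 CPM 1 member was at least 2-fold higher.

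At day 7, 18 of 29 members were at least 2-fold lower in pGF dendritic-marker cells, where 6.55% of all genes were lower, and 0 were higher, where 3.66% of all genes were higher. The median over the 29 was −1.37, against −0.04 over all genes. All 18 had at least 20 UMIs in SPF and an interval of the ratio below 1. Isg15 stood at 0.0704 of the SPF level (0.0535 to 0.0909, log2 ratio −3.70), Rsad2 at 0.0350 (0.00417 to 0.130, −2.95) and Oasl1 at 0.0837 (0.0355 to 0.169, −2.84). Oasl1 had 27.4, 70.0 and 12.8 CPM in pGF (22, 55 and 8 UMIs) and 10.9, 14.2 and 153 CPM in SPF (11, 15 and 157 UMIs). Oas1a had 7.48, 15.3 and 14.4 CPM in pGF (6, 12 and 9 UMIs) and 23.7, 16.1 and 81.1 CPM in SPF (24, 17 and 83 UMIs), so it was not raised in pGF at day 2. The other 15 ratios ranged from −2.38 (Ifit2) to −1.05 (Stat2).

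The lower day 7 levels in pGF dendritic-marker cells ran through most role groups. The oligoadenylate synthetases had 3 of 3 measurable members lower (median −2.02), the Isg15 and ADP-ribosyl group 5 of 6 (−1.65), and the antiviral effectors 4 of 6 (−1.57). Of the signalling members 2 of 4 were lower (−0.85), Stat2 and Usp18, and of the sensors 1 of 4 (−0.77), Zbp1, which senses Z-form nucleic acid. Ifitm3 had 935, 642 and 1006 CPM in pGF and 1026, 1208 and 2620.4 CPM in SPF, so it too was highest in the SPF day 7 library, while Bst2 was under 2-fold (151 CPM in pGF and 243 CPM in SPF at day 7). Along the days, 12 of 27 members were at least 2-fold higher at day 2 than at day 0 in pGF (4.52% of all genes), and 20 of 29 were higher at day 7 than at day 0 in SPF (6.46% of all genes).

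Cells with Ccr7 or Fscn1 carried most of the SPF day 7 level. Ccr7 and Fscn1 mark mature dendritic cells that move to lymph nodes, and cells with at least 1 UMI of either were 19.7%, 7.80% and 15.6% of pGF and 10.6%, 12.5% and 42.7% of SPF dendritic-marker cells. In these cells the inducible group had 289, 1393 and 219 CPM in pGF and 147, 76.6 and 3565 CPM in SPF, from 14, 11 and 24 pGF and 12, 29 and 94 SPF cells. They held 1800 of the 1912 inducible UMIs of the class in SPF at day 7. In the cells without such a UMI the levels were 191, 472 and 145 CPM in pGF and 105, 65.7 and 216 CPM in SPF, so the day 2 difference was present in both sets and the large day 7 difference lay in the Ccr7 or Fscn1 cells. Without them 5 of 26 members were lower at day 7 (6.04% of all genes), 1 was higher (3.96% of all genes), and the median was −0.48. Ccr7 itself had 254 CPM in pGF and 1613 CPM in SPF at day 7 in the class, so more mature cells and higher levels per cell both enter the class sum. Neutrophil markers summed to 19.2 CPM in pGF dendritic-marker cells (0 of 12 at 20 CPM or more, with S100a9, Cxcr2, Ly6g, Mmp8, Camp, Ngp and G0s2 at 0 UMIs) against 619 CPM in SPF (5 of 12), and their part was not tested.

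Cells with Siglech, a marker of plasmacytoid dendritic cells, which are known for interferon-alpha release, formed a class of their own with 0, 19 and 18 pGF and 0, 1 and 25 SPF cells. With fewer than 20 cells in pGF they entered no comparison, and their inducible level was 421 and 413 CPM in pGF at days 2 and 7 (58 and 41 UMIs) and 47.0 CPM in SPF at day 7 (7 UMIs, of which 6 came from 1 cell).

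In neutrophils the arms did not turn. At day 2, 18 of 31 measurable members were at least 2-fold higher in pGF and 0 were lower, but 21.0% of all genes were higher and 17.7% lower in this comparison of 47 cells with 47, so the count is less far from its background than in macrophages. Only 5 of the 18 had at least 20 UMIs in a library, and 8 of the 18 had no UMI in SPF. With those set at 3 counts, the median was 0.68, against 1.34 as counted, and 10 members were at least 2-fold higher. Isg15 had 1662 CPM in pGF (149 UMIs) and 324 CPM in SPF (19 UMIs), a 5.12-fold ratio (3.17 to 8.75). Rsad2 had 479.5 CPM in pGF (43 UMIs) and 102 CPM in SPF (6 UMIs, log2 ratio 2.12), and Isg20 had 357 CPM (32 UMIs) and 85.3 CPM (5 UMIs, 1.94). A single pGF cell held 30.0% of the inducible UMIs, and without it the sum was 1974 CPM, still above the 461 CPM in SPF.

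At day 7, 20 of 30 members were at least 2-fold higher in pGF neutrophils, where 27.0% of all genes were, and 0 were lower, where 6.05% were. The median was 1.51, against 0.56 over all genes, and with TMM factors 10 were higher (6.90% of all genes) and 2 were lower (19.0%). TMM shifted the median of all genes by −0.80 in this pair, and relative to it the members' median was 0.95 with CPM and 1.01 with TMM. Ifit1 had 155 CPM in pGF (17 UMIs) and 11.8 CPM in SPF (156 UMIs), a 13.2-fold ratio (7.47 to 21.8, log2 ratio 2.92). Rsad2 had 310.2 CPM in pGF (34 UMIs) and 36.1 CPM in SPF (478 UMIs, 2.80), and Ifit3 had 63.9 CPM (7 UMIs) and 3.40 CPM (45 UMIs, 2.46). Isg15 at day 7 had 1113 CPM in pGF (122 UMIs) and 229 CPM in SPF (3035 UMIs), and Isg20 had 255 CPM (28 UMIs) and 66.5 CPM (880 UMIs). At day 2 Ifit1 had 13 UMIs in pGF and 1 UMI in SPF neutrophils, and Ifit3 had 16 UMIs and 1 UMI, so the SPF level of both is poorly resolved there. Ifitm3 did not follow, with 1241 CPM in pGF against 1727 CPM in SPF, and Ifi44 had no UMI in any of these neutrophils. Markers of neutrophils summed to 94955 CPM in pGF (10 of 12 at 20 CPM or more, with Camp and Ngp at 0 UMIs) against 299578 CPM in SPF (12 of 12) at day 7, so granule and neutrophil transcripts made up a larger part of the SPF total, and the part of this in the ratios was not tested.

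T or NK cells, with 4749 pGF and 627 SPF cells at day 2, had few members apart by 2-fold. Their inducible sum at day 2 was higher in pGF, at 224 CPM (216 to 231.5) against 95.3 CPM in SPF (82.7 to 109). At day 0, 0 of 21 members were higher (0.375% of all genes) and 0 were lower (0.478%). At day 2, 2 of 22 were at least 2-fold higher in pGF (1.02% of all genes) and 0 were lower (1.29%), with a median of 0.20. Isg15 had 121, 149 and 68.5 CPM in pGF (180, 2275 and 796 UMIs) and 116, 56.9 and 72.2 CPM in SPF (208, 123 and 852 UMIs), and its day 2 ratio was 1.25. Ifi27l2a had 175, 141 and 108 CPM in pGF (261, 2154 and 1259 UMIs) and 84.8, 65.2 and 109 CPM in SPF (152, 141 and 1287 UMIs), and its CPM were 2.07-fold higher in pGF at day 0 and 2.16-fold at day 2. Both were therefore higher in pGF at day 2 and level with SPF at day 7.

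The next members of T or NK cells at day 2 stayed under 2-fold. Isg20 had 32.9, 36.4 and 26.5 CPM in pGF (49, 558 and 308 UMIs) and 34.03, 19.0 and 40.9 CPM in SPF (61, 41 and 483 UMIs). Ifit1 had 5.38, 17.7 and 4.73 CPM in pGF (8, 271 and 55 UMIs) and 1.12, 7.86 and 3.22 CPM in SPF (2, 17 and 38 UMIs). Rsad2 had 13.4, 19.1 and 7.48 CPM in pGF (20, 293 and 87 UMIs) and 6.69, 8.79 and 3.14 CPM in SPF (12, 19 and 37 UMIs). Their day 2 ratios were 0.68, 0.63 and 0.63, on the same side as in macrophages and smaller.

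Among day 0 T or NK cells the larger ratios were in Irf7, Rsad2, Eif2ak2 and Zbp1. Irf7 had 69.9, 42.5 and 31.0 CPM in pGF (104, 650 and 360 UMIs) and 32.9, 27.3 and 26.9 CPM in SPF (59, 59 and 317 UMIs), with a day 0 ratio of 0.90. Eif2ak2, the RNA-activated kinase PKR, had 24.2, 22.7 and 22.4 CPM in pGF (36, 348 and 260 UMIs) and 14.5, 23.6 and 24.5 CPM in SPF (26, 51 and 289 UMIs). Zbp1 had 43.0, 40.7 and 33.0 CPM in pGF (64, 623 and 383 UMIs) and 30.7, 26.4 and 43.6 CPM in SPF (55, 57 and 515 UMIs). At day 0 the intervals of Rsad2, Eif2ak2 and Zbp1 included a ratio of 1.

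At day 7, 0 of 21 members were higher in pGF T or NK cells (1.14% of all genes) and 1 was lower (0.965%). It was Ifitm3, with 2.02, 3.85 and 3.53 CPM in pGF (3, 59 and 41 UMIs) and 5.58, 6.01 and 21.5 CPM in SPF (10, 13 and 254 UMIs, day 7 ratio −1.22). Ifitm3 is abundant in the myeloid cells of that library (2913 CPM in SPF macrophages), and neutrophil markers summed to 18.4 CPM in pGF T or NK cells (0 of 12 at 20 CPM or more, with Cxcr2, Ly6g, Mmp8, Camp and Ngp at 0 UMIs) against 806 CPM in SPF (5 of 12). Their part in this value was not tested. Oas1a, the first oligoadenylate synthetase, had 25.5, 15.0 and 11.8 CPM in pGF (38, 229 and 137 UMIs) and 21.2, 22.2 and 25.1 CPM in SPF (38, 48 and 296 UMIs). Ifi35 had 48.4, 39.1 and 29.3 CPM in pGF (72, 599 and 341 UMIs) and 44.6, 26.8 and 44.8 CPM in SPF (80, 58 and 528 UMIs). Rtp4 had 23.5, 22.3 and 12.0 CPM in pGF (35, 342 and 140 UMIs) and 17.3, 13.4 and 20.2 CPM in SPF (31, 29 and 238 UMIs). Their day 7 ratios were −0.69, −0.48 and −0.45, so they leaned to SPF and stayed within 2-fold, as did Isg20 (−0.48).

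The T or NK class is made of several clusters, and at day 7 the pGF cells were most often in a cluster led by Xcl1 and Cd7 (1990 pGF and 1188 SPF cells), while the SPF cells were most often in one led by Gzma and Gzmb (434 pGF and 1455 SPF cells). Within each of these 1 of 21 members was lower (0.423% and 0.663% of all genes) and 0 were higher (0.809% and 0.913%). In a cluster led by Ccr7 and Lef1 (454 pGF and 86 SPF cells) 9 of 23 members were lower in pGF (5.41% of all genes) and 0 were higher (3.29%). In one led by Gzma, Ccl5 and Cd8b1 (613 pGF and 313 SPF cells) 4 of 25 were lower (1.34% of all genes) and 0 were higher (1.20%). In the other clusters with at least 20 cells in both arms 0 of 20 and 2 of 19 were lower (1.54% and 2.79% of all genes). In both, 0 were higher (2.71% and 3.09%). At day 2, 1 of 22 members was higher in pGF in the Xcl1 and Cd7 cluster (1.69% of all genes). In the Gzma and Gzmb cluster 2 of 23 were higher (1.41%), and 0 were lower in either (0.872% and 0.643%). In the Gzma, Ccl5 and Cd8b1 cluster 5 of 26 were higher (8.64%) and 1 was lower (8.03%). In the others with at least 20 cells in both arms 3 of 24, 4 of 23 and 0 of 19 were higher (2.70%, 5.66% and 5.14%). There 1, 0 and 1 were lower (1.40%, 5.18% and 6.15%).

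B cells at day 7 had 1 of 19 members lower in pGF (1.56% of all genes), again Ifitm3, with 9.85 CPM in pGF (13 UMIs) and 33.1 CPM in SPF (20 UMIs, log2 ratio −1.12). Ifi27l2a had 422 CPM in pGF and 212 CPM in SPF (0.96, with 557 and 128 UMIs), and Xaf1, a gene linked to apoptosis, had 20.4 and 8.27 CPM (0.74). Isg15, at 12.1 CPM in pGF against 21.5 CPM in SPF, was low in B cells of both arms. Neutrophil markers summed to 25.0 CPM in pGF B cells (0 of 12 at 20 CPM or more, with Cxcr2, Ly6g, Mmp8, Camp and Ngp at 0 UMIs) against 1437 CPM in SPF (6 of 12, with Camp at 0), and their part was not tested.

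Plasma cells kept most members low. Of 10 members at day 0, 1 was lower in pGF (1.71% of all genes). At day 2, 1 of 12 was higher (3.73% of all genes), and at day 7, 1 of 12 was higher (3.09% of all genes). The members were Ifi27l2a at days 0 and 7 and Isg15 at day 2, and none of these 3 calls was left with TMM, which shifted the median of all genes by −0.18 at day 7. Within the main plasma cluster 0 of 10 members were higher at day 2 (1.92% of all genes). Ifi27l2a had 120.0, 262 and 186 CPM in pGF (2788, 422 and 828 UMIs) and 255, 241 and 87.8 CPM in SPF (8097, 1115 and 130 UMIs), with ratios of −1.03 at day 0 and 1.01 at day 7. Its difference thus had opposite signs at these days. Isg15 had 33.4, 40.3 and 27.0 CPM in pGF (775, 65 and 120 UMIs) and 25.7, 12.97 and 31.7 CPM in SPF (814, 60 and 47 UMIs), with a day 2 ratio of 1.13.

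Other members stood out in plasma cells under 2-fold. Irf7 was lower in pGF at day 0 (11.8 CPM against 22.3 CPM in SPF). Isg20 had 65.6, 74.4 and 54.7 CPM in pGF and 71.9, 35.9 and 88.4 CPM in SPF, which puts it higher in pGF at day 2 (0.88) and lower at day 7 (−0.61). Zbp1 had 39.4, 35.3 and 37.6 CPM in pGF and 39.4, 32.4 and 82.3 CPM in SPF, so the SPF day 7 library alone was high (−0.96). Ifitm3 had 41.4, 52.1 and 70.2 CPM in pGF and 28.4, 23.6 and 59.4 CPM in SPF, with ratios of 0.42 at day 0 and 0.89 at day 2. Bst2 had 909, 749 and 482 CPM in pGF and 978, 858 and 338 CPM in SPF plasma cells. It was lowest at day 7 in both arms, and at each day it stood above Bst2 in macrophages of the same library.

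Epithelial cells were present in spite of the stripping step and the sort, and their members were low. At day 0, 0 of 16 members were higher (0.219% of all genes) and 0 were lower (0.477%), and at day 2, 0 of 18 were higher (0.435%) and 0 were lower (0.497%). Rsad2 had 25.1, 22.0 and 16.7 CPM in pGF and 12.7, 19.1 and 4.44 CPM in SPF (day 0 ratio 0.63). Oasl1 had 31.7, 13.2 and 25.9 CPM in pGF and 17.8, 10.0 and 24.4 CPM in SPF (day 0 ratio 0.59). Dtx3l, the partner of Parp9 in a ubiquitin ligase, had 18.2, 16.5 and 27.8 CPM in pGF and 16.6, 27.8 and 53.3 CPM in SPF (day 2 ratio −0.51). These 3 stayed within 2-fold, in either direction, at days 0 and 2. Clusters differed at day 2. In one led by Reg3b and Saa1 (49 pGF and 89 SPF cells) 8 of 23 members were lower in pGF (6.57% of all genes) and 0 higher (22.5%). In one led by Spink1 and Krt18 (140 and 42 cells) 6 of 21 were lower (10.3%) and 1 was higher (7.59%). In those led by Pigr, Car1 and Spink4, 0 members were apart (0.310% to 0.777% of all genes in either direction).

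At day 7, 9 of 23 members were lower in pGF epithelial cells (4.85% of all genes). Isg15 had 14.7, 12.0 and 13.9 CPM in pGF (47, 295 and 15 UMIs) and 7.89, 9.13 and 131 CPM in SPF (28, 121 and 59 UMIs). Zbp1 had 8.78, 5.94 and 10.2 CPM in pGF (28, 146 and 11 UMIs) and 7.61, 15.2 and 106.5 CPM in SPF (27, 201 and 48 UMIs). Ifitm3 had 35.7, 81.3 and 49.1 CPM in pGF (114, 1997 and 53 UMIs) and 43.4, 40.1 and 171 CPM in SPF (154, 531 and 77 UMIs). All 3 were high in the SPF day 7 library alone, apart from Ifitm3 in pGF at day 2. The arms also drew on different clusters, since one led by Reg3b and Saa1 held 20 of the pGF and 33 of the SPF cells and one led by Pigr and Krt8 held 30 and 5. In the Reg3b cluster the inducible group had 245 CPM in pGF (122 to 438, 11 UMIs) and 652 CPM in SPF (523 to 804, 88 UMIs). The comparison of the whole class rests on 86 pGF and 63 SPF cells with median depths of 10822 and 1338 UMIs. In SPF 1 cell held 44.8% of the inducible UMIs of the class (132 CPM without it, against 233 CPM with it). Its 47 UMIs are part of the 88 of the Reg3b cluster, since the class had 105. Neutrophil markers summed to 130 CPM in pGF (3 of 12 at 20 CPM or more, with Cxcr2, Mmp8, Camp and Ngp at 0 UMIs) against 6397 CPM in SPF (8 of 12, with Cxcr2 at 0), and their part was not tested.

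Shares of cells were compared after each cell had been thinned to 1000 UMIs, to remove differences in depth. At least 1 inducible UMI was found in 17.0%, 33.9% and 18.1% of pGF macrophages (11.3% to 24.1%, 25.2% to 43.6% and 12.7% to 24.6%) and in 17.5%, 17.2% and 38.1% of SPF macrophages (13.2% to 22.6%, 12.5% to 22.7% and 35.8% to 40.6%) at days 0, 2 and 7. Both peaks were therefore seen in the share of cells as well as in the sum. Cells left out as shallower numbered 13, 12 and 39 in pGF and 18, 17 and 193 in SPF, and without thinning the shares were 48.1%, 67.8% and 42.6% in pGF and 48.3%, 43.4% and 63.8% in SPF. With at least 5 UMIs, the shares were 0.680%, 7.34% and 1.13% in pGF and 2.19%, 1.32% and 6.21% in SPF, which gives the same pattern among strongly positive cells.

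**Figure D5:**
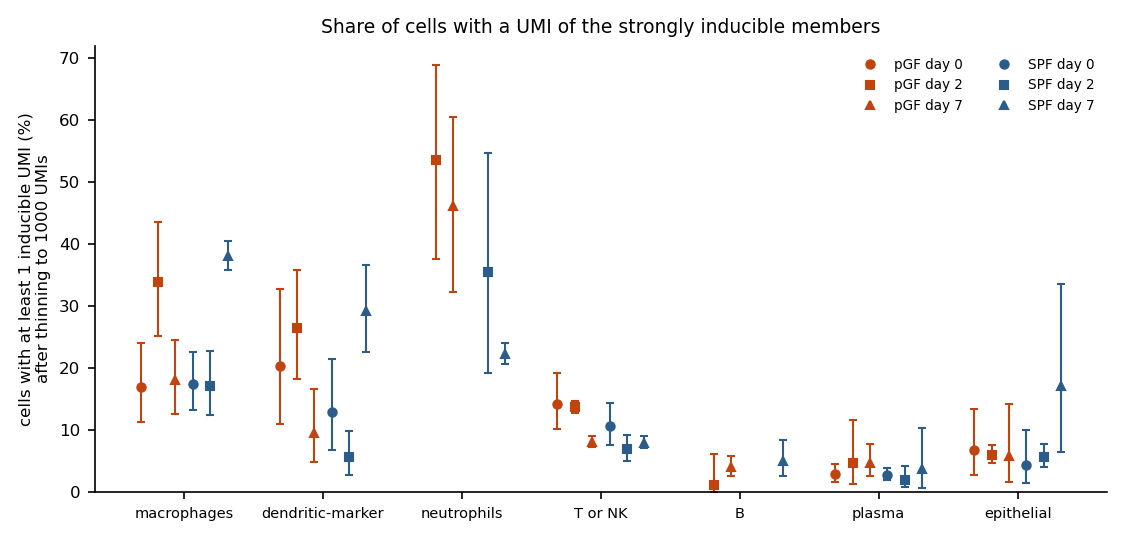
Share of cells (%) with at least 1 UMI of the inducible members after thinning each cell to 1000 UMIs, by class and library, with exact 95% binomial intervals. Plasma and B cells lie near 1% to 5%, and macrophages reach 33.9% at day 2 in pGF and 38.1% at day 7 in SPF.

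In dendritic-marker cells the thinned shares were 20.3%, 26.4% and 9.65% in pGF and 12.9%, 5.67% and 29.2% in SPF. Neutrophils had 53.5% and 46.2% in pGF (37.7% to 68.8% and 32.2% to 60.5%) and 35.5% and 22.4% in SPF (19.2% to 54.6% and 20.7% to 24.1%), so at day 2 the intervals overlapped. T or NK cells had 14.3%, 13.7% and 8.16% in pGF and 10.7%, 6.97% and 8.03% in SPF. Plasma cells of the same libraries, in which these members are low, had 2.08% to 4.71%, and free RNA in droplets cannot be told apart from expression at that level. The transcripts were unevenly spread, since the 10% of macrophages with most inducible UMIs held between 63.2% and 78.0% of them in each library. In SPF day 7 dendritic-marker cells that figure was 84.7%, and the top macrophage of pGF at day 2 held 15.1% (958 CPM without it, against 1112 CPM with it).

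The genes upstream gave a partial view. Type I ligands were nearly unseen in the cells counted. These were classes with at least 20 cells in a library, without pGF plasmacytoid-marker cells and classes such as fibroblasts and mast cells. Of 21 interferon ligand symbols, 18 of them type I, 12 had 0 UMIs, and Ifnl2 and Ifnl3, which are type III, were among the 12. Ifnb1, which encodes interferon-beta, had 150 UMIs. In macrophages Ifnb1 had 8, 18 and 25 UMIs in pGF and 7, 5 and 40 UMIs in SPF, and in dendritic-marker cells 15, 20 and 2 UMIs in pGF and 5, 1 and 0 UMIs in SPF. A few cells held them: 1 pGF macrophage at day 2 had 11 of the 18 UMIs, and 1 SPF macrophage at day 7 had 27 of the 40. No UMI of Ifnb1 was found in the SPF day 7 dendritic-marker cells, where the inducible members were at their highest for that class. Ifng, the gene of interferon-gamma, had 64.5, 74.7 and 90.2 CPM in pGF and 99.9, 48.6 and 43.0 CPM in SPF T or NK cells.

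Among the other listed pathway genes, day 2 macrophages had 0 of 5 receptors, 0 of 8 kinases and factors and 0 of 8 interferon-gamma genes at least 2-fold apart. At day 2, 2 of 6 interferon-gamma genes were higher (2.77% of all genes) and 1 was lower (4.43%) in pGF dendritic-marker cells. Cxcl9, a chemokine that draws T cells, had 132 CPM in pGF against 14.2 CPM in SPF (log2 ratio 2.55). There Socs1, which inhibits the kinases, was also higher in pGF (1.82), as were Ifnb1 (1.70) and Serpina3g (1.41), while Gbp4 (−1.96) and the receptor gene Ifnar1 (−1.43) were lower. At day 7, 7 of 9 interferon-gamma genes were lower in pGF macrophages, where 5.41% of all genes were, and 1 was higher, where 9.34% were. Cxcl9 had 28.8 CPM in pGF and 322 CPM in SPF (−3.10), Gbp5 had 22.1 CPM and 164 CPM (−2.43), and Nos2, which makes nitric oxide, had 0 UMIs in pGF and 9142 UMIs in SPF, while Ciita, which drives class II antigen presentation, was higher in pGF (1.79). Gbp2 (−1.50), Serpina3g (−1.25), Gbp4 (−1.09) and Irgm1 (−1.04) were also lower, as were Socs3 (−1.88), Socs1 (−1.65) and Jak2 (−1.27), while Ifnb1 (1.46) and Irf8 (1.30) were higher. Lower day 7 levels in pGF macrophages were thus also seen among genes outside the listed members.

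In day 7 dendritic-marker cells 7 of 8 interferon-gamma genes were lower in pGF (6.55% of all genes), which were Gbp5 (−2.66), Gbp2 (−2.55), Serpina3g (−2.40), Cxcl9 (−1.90), Fcgr1 (−1.65), Irgm1 (−1.61) and Gbp4 (−1.44). Socs1 (−1.98), Tmem173 (−1.46), Ddx58 (−1.45) and Jak1 (−1.01) were lower too, and Tlr3 was higher (1.66). In day 7 neutrophils Gbp2 (3.37), Gbp5 (3.27), Irgm1 (2.46), Irf1 (1.90), Jak2 (1.76), Gbp4 (1.75), Irf5 (1.72), Ifnar1 (1.55), Il10rb (1.49), Socs1 (1.48) and Jak1 (1.03) were higher in pGF, and Nos2 (0 UMIs in pGF and 1588 UMIs in SPF) and Cxcl9 (0 and 209 UMIs) were lower. At day 2 pGF neutrophils were higher in Myd88 (2.53), Irf1 (1.11) and Ifngr1 (1.02) and lower in Jak2 (−1.01). In these neutrophil pairs 27.0% of all genes were higher and 6.05% lower at day 7, and 21.0% and 17.7% at day 2. The median over all genes was 0.56 at day 7. TMM shifted it by −0.80, and the ratios given here are without that shift. Smaller sets were apart elsewhere: Cxcl9 in day 0 macrophages (1.04) and dendritic-marker cells (1.52, with Socs1 at −1.50 and Gbp2 at −1.38), and Serpina3g in T or NK cells at days 2 and 7 (−1.32 and −1.17, with Ifngr2 at 1.03 at day 7). B cells at day 7 had Socs3 (−2.98) and Gbp2 (1.11), and epithelial cells at day 7 had Nos2 (0 UMIs in pGF and 133 UMIs in SPF). Plasma cells had Irf8 at day 0 (−1.10), Ifngr1 (1.27), Tmem173 (1.05) and Ifng (22 UMIs in pGF and 0 UMIs in SPF) at day 2, and Jak2 (1.12), Socs3 (−1.17) and Cxcl9 (−1.56) at day 7.

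Immediate-early and heat-shock genes, which rise when tissue is digested, moved with the arms as well. Of 11 such genes 5 were at least 2-fold higher in pGF macrophages at day 2 (2.50% of all genes) and 8 at day 7 (9.34%), and 0 were lower at either day. In dendritic-marker cells 4 were higher at day 2 (2.77%) and 6 at day 7 (3.66%), and 0 were lower. Their sum in macrophages was 13096, 13290 and 7987 CPM in pGF and 12814, 8626 and 3482 CPM in SPF. Their part in the member differences was not tested. T-cell markers summed to 704 CPM in pGF and 278 CPM in SPF macrophages at day 2, with 10 of 13 at 20 CPM or more in pGF and 3 of 13 in SPF, and their part was not tested.

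Over 38 sums of a class in a library with at least 20 cells, the members followed one another to different degrees. These correlations share libraries and depths and are given as description. Isg15 had the highest median Pearson correlation with the other members (r = 0.64), next to Parp14 and Ifit1 (0.63 each). The closest pairs were Rsad2 with Oasl2 (0.89), Oas2 with Oasl2 (0.89), Oas3 with Oasl2 (0.89), Rtp4 with Oasl2 (0.87), Ifit1 with Rsad2 (0.87) and Dtx3l with Parp9 (0.87), and the last pair are overlapping neighbours on chromosome 16. Bst2 (−0.08) and Isg20 (0.08) had the lowest medians, and Bst2 is the member noted above for its level in plasma cells. Ifi44 was the least detected member, passing the limit of 10 CPM in none of the compared classes and pairs.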

How the data were processed

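Cells sorted for CD45 from mouse colon were profiled with a droplet kit that reads the 5′ end of transcripts, and the V(D)J libraries were not analysed here. The values are UMI counts for each gene and cell barcode, not normalized, which the authors made with Cell Ranger 6.1.2 on mm10, per the file headers and the submitters' processing notes, which also name R 4.1.3 and Seurat 4.1.1. Cells with more than 10% mitochondrial UMIs or fewer than 200 genes were removed, and doublets were removed at 0.8% per 1000 barcodes by scrublet scores. Cells were clustered (scanpy 1.11.5, leidenalg 0.10.2; 2000 variable genes, 30 components, 20 neighbours, resolution 1) without the members and the pathway genes, and classed by marker lists. The dendritic-marker and plasmacytoid-marker classes were set apart after the clusters had been seen.

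UMI counts were summed per class and library with at least 20 cells and compared on the log2(CPM + 10) scale, with a filter of a mean of 10 CPM over the pair. Intervals are exact at 95% (Poisson or Clopper-Pearson). With 1 library per group no count model was fitted and no p-value is given, and edgeR 4.0.16 served only for TMM factors. The steps were tested on simulated data with known changes. In macrophages and T or NK cells the 5 members with the largest size of log2 ratio and at least 20 UMIs were named at each day, and in other classes 3. Pathway genes were named where at least 2-fold apart with at least 20 UMIs, except 1 that is not reported here. Other genes named were chosen after their values were seen. Members and lists were chosen with earlier results of these data known. Symbols were matched exactly, and no sample's column was left unmapped. Python 3.11.15 was used with numpy 2.4.6, scipy 1.17.1, pandas 2.3.3, scikit-learn 1.9.0 and matplotlib 3.10.9.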

Additional observations from a re-analysis of the deposited data

Results flagged for a closer look

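The difference between pGF and SPF had opposite signs at days 2 and 7, and the difference between the days was not tested because each group is 1 library. In macrophages the median log2 ratio over the measurable members was 0.49 at day 2 and −0.32 at day 7. Inside the C1q cluster it was above 0 at both days (0.64 and 0.26), inside the Saa3 and Il1b cluster it was 0.12 at day 7, and inside the low-depth cluster −0.41. Over all genes the day 7 medians were 0.26 in the class, −0.03 in the C1q cluster, 0.29 in the Saa3 and Il1b cluster and 0.335 in the low-depth cluster. Isg15 had ratios of 2.36 and −1.80 in macrophages at days 2 and 7, and Ifit1 had 1.35 and −1.03. In dendritic-marker cells the medians were 0.43 and −1.37. There Isg15 had 3.18 and −3.70, Rsad2 had 1.81 and −2.95, Usp18 had 1.45 and −1.62, and Oasl1 had 1.72 and −2.84.

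Some classes outside the comparisons above also carried these transcripts. In fibroblasts or smooth muscle at day 0 the inducible members summed to 333.3 CPM in pGF (39 cells) against 133.5 CPM in SPF (24 cells). Group 2 innate lymphocytes at day 2 had 170.4 CPM in pGF (186 cells) against 54.9 CPM in SPF (66 cells).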

How the results depend on the processing

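No paired analysis was possible because each group is 1 library, and for the same reason no library could be left out of a group. Of the summary values (medians and counts of members) under the alternatives, 340 stayed close to the value reported, 34 moved (a count by over 1.5 times, or a median beyond the 95% order-statistic interval over members) and 2 changed sign. Of the ratios of named members and the shares of cells, 952 kept their side of 2-fold or their interval, 38 came under 2-fold, 46 came past it, 34 moved and 5 changed sign. Under other limits on genes, mitochondrial UMIs or doublets, or another resolution, the cells were clustered and classed anew. In day 0 macrophages the median was −0.008 with doublets kept, against −0.10. In day 2 macrophages the 6 higher members became 10 with a pseudocount of 1 CPM, 2 with one of 50 CPM, 2 with a mean of at least 50 CPM and 11 in the C1q cluster alone. In day 7 macrophages the 4 lower members became 2 with a pseudocount of 50 CPM and 9 with TMM. The TMM median was −0.78, and 11.3% of all genes were lower with TMM. With at least 500 genes per cell 0 were lower and Ifit1 was at 0.19, and 0 were lower in the C1q cluster alone. In that cluster the median was 0.26, Oasl1 was at 1.04, Isg15 at 0.86, Parp14 at 0.24 and Ifit1 at 0.41. In dendritic-marker cells the 7 higher members at day 2 became 1 with a pseudocount of 50 CPM, 1 with a mean of at least 50 CPM and 11 with up to 20% mitochondrial UMIs. The 18 lower ones at day 7 became 10 with a pseudocount of 50 CPM (median −0.66) and 7 with a mean of at least 50 CPM. In neutrophils the 18 higher members at day 2 became 10 with either of these settings, and at day 7 the 20 became 13 with a pseudocount of 50 CPM (median 0.76) and 10 with TMM (median 0.78), while a pseudocount of 1 CPM gave a median of 1.81. T or NK cells at day 0 had a median of 0.44 in their cluster with most pGF cells. Plasma cells at day 7 had −0.31 without immunoglobulin, haemoglobin, mitochondrial and ribosomal protein genes in the total and −0.21 with TMM. In epithelial cells a mean of at least 50 CPM gave −0.42 at day 0, 0.87 at day 2 (1 member each) and −1.61 at day 7 with 5 lower members, against 9, and a pseudocount of 50 CPM or resolution 0.5 left 3. Chosen after seeing the data, the cluster with most SPF macrophages gave a day 7 median of 0.12 (0.29 over all genes), and dendritic-marker cells without Ccr7 or Fscn1 gave −0.48 with 5 lower members. The cause of these moves was not tested, except that a higher limit on CPM leaves fewer members. At least 2000 UMIs left under 20 neutrophils in a library, and the epithelial cluster with most pGF cells was too small at day 7.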

Other observations

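Mast cells had 530 CPM of the inducible members in pGF at day 2 (27 cells) and 188 CPM in SPF at day 7 (21 cells), with no pair on the same day. Group 2 innate lymphocytes had 130, 170.4 and 78.9 CPM in pGF and 88.8, 54.9 and 294 CPM in SPF at days 0, 2 and 7, the same order of days in each arm as in macrophages. Fibroblasts or smooth muscle had 91.9 and 93.7 CPM in pGF at days 2 and 7 and 151 CPM in SPF at day 2 (421 cells).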
